A study of Mus musculus with 10 samples.

Results

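Of the 10 whole mouse liver libraries in the series, 3 had more than 1000 TPM of Saa1, where TPM is transcript abundance corrected for length and scaled to one fixed total, and are compared here with the other 7. They were chosen by that measured level alone. They were Control 4, with 6586 TPM, Alk1-HEC-KO 4, with 6733 TPM, and Alk1-HEC-KO 5, with 13331 TPM. The highest library below the threshold was Alk1-HEC-KO 3, with 874 TPM, and the lowest above it was Control 4. The other libraries had 55.5, 49.7, 146 and 351 TPM (Control 1, 2, 3 and 5) and 61.5 and 196 TPM (Alk1-HEC-KO 1 and 2). The 3 libraries thus came from both groups: 1 of 5 controls and 2 of 5 labelled Alk1-HEC-KO.

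The control group has the genotype label Ctrl. The other group is labelled Alk1-HEC-KO, and the series title says that Alk1, also called Acvrl1, was knocked out in mice. Acvrl1 encodes a receptor for BMP ligands that is found mainly on endothelial cells. The labels used here do not spell out HEC and give no strain, age, sex, driver or treatment. Nor do they state that each library is its own animal, so the spread behind a p-value here is one between libraries and may be technical. RNA came from frozen, homogenised whole liver, a mixture of all its cells. In such bulk samples fewer cells of a type and less RNA per cell cannot be told apart.

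Saa1 chose the libraries, so its own level is no result, and any gene that varies with it is described without a test. A gene was counted as higher or lower by a fixed description. Within each group, every high-Saa1 library had to lie beyond every other library in log2 CPM (counts scaled to library size, in log2), and the fitted difference, with group as a term, had to be at least 2-fold. Differences are given as high-Saa1 minus the rest on the log2 scale, with their standard error (SE), and levels as TPM. The numbers in the submitters' library names fall in 3 runs, and what a run stands for is not given in the labels. Control 1, Control 2 and Alk1-HEC-KO 1 form a run with no high-Saa1 library, Control 4 is in a run with Control 3, Control 5 and Alk1-HEC-KO 3, and Alk1-HEC-KO 2, 4 and 5 form the third. For lists and genes that the text turns on, values from a fit with the run as a term are given where they moved by more than 1.5 times or fell under 2-fold.

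Saa1 encodes a serum amyloid A protein. Hepatocytes secrete such acute phase proteins in large amounts during inflammation, when IL-6 acts through STAT3, and IL-1 and TNF through NF-kB and C/EBP factors. Proteins such as haptoglobin and hemopexin bind haemoglobin and haem, others carry lipid or iron-binding molecules, and the metallothioneins bind zinc and copper. The genes of many secreted carrier proteins and drug-metabolising enzymes are known to be expressed less in this state.

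The regions just upstream of 7 acute phase genes are printed because they show what the shared and the unshared genes have upstream: Saa1, Saa2, Saa3, Orm2, Hpx and Apcs were apart in both groups, and Fgb was not. The sequences are from RefSeq on GRCm38.p6, run 5′ to 3′ on the strand of the gene from 250 to 60 bases before its start, and capitals mark matches to the 2 motifs named after them.
Saa1: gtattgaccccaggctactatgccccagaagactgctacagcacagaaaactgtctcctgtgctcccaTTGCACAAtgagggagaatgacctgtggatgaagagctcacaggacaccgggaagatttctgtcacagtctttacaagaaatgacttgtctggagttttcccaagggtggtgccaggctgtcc
Saa2: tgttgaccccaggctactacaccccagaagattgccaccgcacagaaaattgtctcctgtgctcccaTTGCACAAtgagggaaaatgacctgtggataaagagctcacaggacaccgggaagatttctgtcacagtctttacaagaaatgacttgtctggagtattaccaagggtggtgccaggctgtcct
Saa3: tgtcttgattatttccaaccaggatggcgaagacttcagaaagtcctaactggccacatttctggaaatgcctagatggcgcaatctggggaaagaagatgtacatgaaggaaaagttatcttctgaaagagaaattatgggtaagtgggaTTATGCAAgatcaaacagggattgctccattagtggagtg
Orm2: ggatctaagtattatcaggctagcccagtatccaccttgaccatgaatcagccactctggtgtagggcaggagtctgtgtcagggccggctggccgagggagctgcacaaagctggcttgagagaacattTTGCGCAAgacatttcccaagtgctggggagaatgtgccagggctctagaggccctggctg
Hpx: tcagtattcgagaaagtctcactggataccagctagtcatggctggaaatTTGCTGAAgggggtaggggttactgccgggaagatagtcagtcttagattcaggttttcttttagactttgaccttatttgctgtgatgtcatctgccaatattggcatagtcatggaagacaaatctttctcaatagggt
Apcs: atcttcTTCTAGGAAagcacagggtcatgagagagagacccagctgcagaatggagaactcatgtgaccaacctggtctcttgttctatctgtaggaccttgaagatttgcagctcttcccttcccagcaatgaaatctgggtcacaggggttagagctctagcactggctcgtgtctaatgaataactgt
Fgb: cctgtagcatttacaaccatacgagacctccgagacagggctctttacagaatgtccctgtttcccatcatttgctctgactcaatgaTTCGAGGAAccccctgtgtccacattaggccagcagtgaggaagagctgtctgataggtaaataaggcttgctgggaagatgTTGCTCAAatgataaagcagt
The stretches lie at chr7:46743040-46743230 (minus strand, Saa1), chr7:46751583-46751773 (plus, Saa2), chr7:46715736-46715926 (minus, Saa3), chr4:63362199-63362389 (plus, Orm2), chr7:105600176-105600366 (minus, Hpx), chr1:172895114-172895304 (minus, Apcs) and chr3:83049923-83050113 (minus, Fgb).

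Each capital run is a match on either strand to the C/EBP motif TTGCNNAA, except that of Apcs and the first of Fgb, which match the STAT motif TTCNNNGAA. Saa1 and Saa2 carry the same 8 letters, 182 and 183 bases before their starts. Over the whole 250 bases, the C/EBP letters were present at 13 of the 24 acute phase genes in the table (54.2%) and at 10.8% of all 27025 genes in it. The STAT letters were present at 7 of the 24 (29.2%), against 8.1% of all genes. Among the acute phase genes higher in both groups, Saa1 included, 6 of the 9 in the table held the C/EBP letters (66.7%), as did 7 of the 15 others (46.7%). The STAT letters went the other way, at 2 of those 9 (22.2%) and 5 of those 15 (33.3%). The kappa-B consensus was found at 0 of those 9, at 2 of those 15, and at 4.5% of all genes. A match is a run of letters and shows no binding.

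The serum amyloid genes Saa2 and Saa3 moved together with Saa1. Saa2, which lies beside Saa1 on chromosome 7 (46751790 to 46754313), was at 5332 TPM in Control 4 and at 4945 and 10990 TPM in Alk1-HEC-KO 4 and 5. It was at 29.0, 14.6, 41.5 and 75.6 TPM in Control 1, 2, 3 and 5, and at 27.9, 48.9 and 382 TPM in Alk1-HEC-KO 1, 2 and 3. No library of the rest came near the high-Saa1 libraries, and the log2 difference was 6.42 (SE 0.88). Transcripts of Saa1 and Saa2 share 46.0% of the 31-base words of Saa1, so reads could be divided between the pair, and Saa2 is not a fully separate measurement. Saa3 shares 1.1% of its words with Saa1 and was also apart. It stood at 421, 270 and 222 TPM in the high-Saa1 libraries and between 7.52 and 24.5 TPM in the others, a log2 difference of 4.82 (SE 0.29). Saa4, the constitutively expressed family member, was not counted: Alk1-HEC-KO 4 had 99.4 TPM, below all 3 other libraries of its group.

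Outside the Saa locus the 2 largest differences among counted genes were those of Lcn2 and Orm2, which encode secreted acute phase proteins. Lcn2, which encodes lipocalin 2, a protein that binds bacterial siderophores, was at 592 TPM in Control 4, 220 in Alk1-HEC-KO 4 and 1111 in Alk1-HEC-KO 5. The other controls had 5.58, 3.44, 5.599 and 10.4 TPM and Alk1-HEC-KO 1 to 3 had 3.53, 27.3 and 20.3 TPM, so no value overlapped (log2 difference 6.03, SE 0.69). Orm2, for an orosomucoid that carries basic and lipophilic molecules, was at 635, 723 and 1653 TPM in the same 3 libraries. Its other values ran from 11.7 to 48.5 TPM, and the log2 difference was 5.31 (SE 0.59). Its neighbour Orm1 was already at 981 TPM or more in every library and differed less, with 3200, 3350 and 4549 TPM against 981 to 1522 TPM (log2 difference 1.65, SE 0.21). Transcripts of Orm1 and Orm2 share 27.5% of their words.

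**Figure D1:**
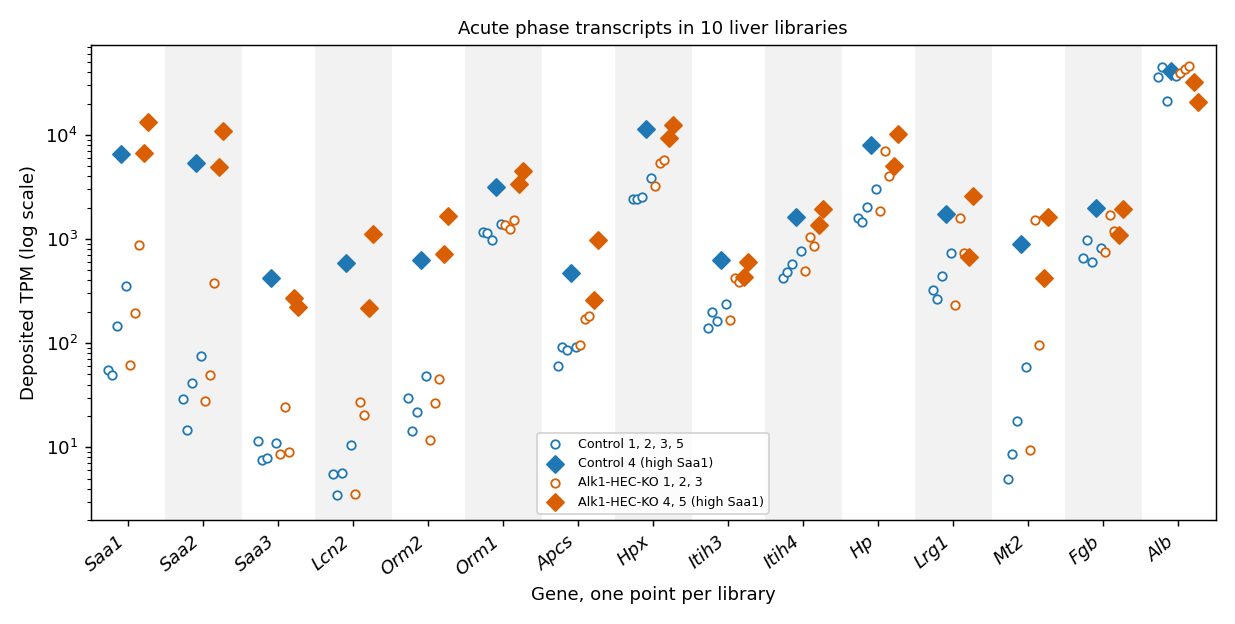
Deposited TPM (log scale) of 15 genes in each library; filled diamonds are the 3 high-Saa1 libraries and open circles the other 7, blue for Control and orange for Alk1-HEC-KO. From Saa2 to Itih4 the diamonds of each colour lie above the circles of the same colour, while for Hp, Lrg1, Mt2 and Fgb a circle, Alk1-HEC-KO 2, lies among the diamonds; Alb is shown for comparison.

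Smaller differences in the same direction were found for 4 further acute phase genes. Apcs, which encodes serum amyloid P, was at 476, 258 and 977 TPM in Control 4 and Alk1-HEC-KO 4 and 5 and between 60.1 and 183 TPM elsewhere (log2 difference 2.44, SE 0.38). Hpx, which encodes hemopexin, was at 11510, 9310 and 12550 TPM against 2422 to 5716 TPM (1.69, SE 0.24). Itih3 and Itih4 encode heavy chains of the inter-alpha-trypsin inhibitor family, which bind hyaluronan. Itih3 reached 630, 431 and 600 TPM against a highest other value of 423 TPM, in Alk1-HEC-KO 2 (1.28, SE 0.26). Itih4 reached 1612, 1368 and 1929 TPM against at most 1057 TPM, also in Alk1-HEC-KO 2 (1.20, SE 0.28, and 0.90 with the run as a term, which is under 2-fold). For Itih3 and Itih4 the gap within the Alk1-HEC-KO group was narrow.

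In all, 9 of the 28 fitted acute phase genes other than Saa1 were counted as higher and 0 as lower, where 0.474% of the 12872 fitted genes were counted as higher and 0.21% as lower. The median log2 difference of the list was 1.29, beside 0.01 over all fitted genes, and 26 of the 28 values were positive. Over 22 alternatives the median ran from 0.97 (with the run of library numbers as a term) to 1.59. The median was 1.35 within Control and 1.02 within Alk1-HEC-KO. The list was drawn up with results of these libraries known, and its genes vary with the gene that chose the libraries.

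The other 19 fitted acute phase genes were not counted, and in 15 of them Alk1-HEC-KO 2 had a higher TPM than Alk1-HEC-KO 4. Alk1-HEC-KO 2 had only 196 TPM of Saa1, 24.5 of Saa3 and 26.5 of Orm2. Yet its haptoglobin transcript Hp was at 7071 TPM, above Alk1-HEC-KO 4 with 5054 TPM, and the remaining libraries outside the high set had 1470 to 4026 TPM. Its metallothionein transcripts Mt1 and Mt2 were at 2093 and 1525 TPM, above Alk1-HEC-KO 4 with 1153 and 423 TPM. In the 6 remaining low-Saa1 libraries Mt2 ran from 4.93 to 96.0 TPM. Lrg1, which encodes a leucine-rich glycoprotein of plasma, was at 1578 TPM in Alk1-HEC-KO 2 and 676 TPM in Alk1-HEC-KO 4. With the run as a term the log2 difference was 0.92 in place of 1.56 for Lrg1 and 2.21 in place of 3.35 for Mt2. The fibrinogen chain genes were likewise higher in Alk1-HEC-KO 2 (Fga 3765, Fgb 1712 and Fgg 3556 TPM) than in Alk1-HEC-KO 4 (2106, 1105 and 2269 TPM). Within Control, in contrast, Fgb was at 1984 TPM in Control 4 and at most 971 TPM in the other 4. Lbp, for the lipopolysaccharide-binding protein, was highest of all in Alk1-HEC-KO 2, at 132 TPM. The libraries therefore did not fall in 1 order. The Saa2, Saa3, Lcn2 and Orm2 transcripts put Alk1-HEC-KO 4 with the high set and Alk1-HEC-KO 2 with the rest. Hp, Lrg1, Mt1, Mt2 and the fibrinogen genes ranked Alk1-HEC-KO 2 above Alk1-HEC-KO 4.

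Crp, a major acute phase gene in humans but not in mice, was at 254, 155 and 214 TPM in the 3 libraries and 151 to 237 TPM in the rest. Hamp, which encodes the iron hormone hepcidin, was at 2844, 4339 and 3474 TPM against 1134 to 5809 TPM. Neither separated the sets.

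Across all fitted genes 61, Saa1 included, were counted as higher (0.474%) and 27 as lower (0.21%), of 2.56% and 2.18% that showed no overlap at any fold. Leaving out any 1 library gave 68 to 367 higher and 28 to 119 lower, since fewer libraries then had to be apart, with the most higher without Control 4 and the most lower without Alk1-HEC-KO 4. The count also depended on the scale. In the deposited TPM, which sum to the same total in each library, 26 of the 61 and 20 of the 27 also showed no overlap, a requirement added after the data were seen. All 10 acute phase genes, Saa1 among them, were in the 26. The other 16 included Moxd1, Prtn3, Crybb3, Cxcl14, Atp11a, Ccr2, Nnmt, Cd207 and Tnfsf13, and the 35 that overlapped in TPM included Socs3, Cxcl1, Ccl19, Fcgr1, Lpl, Tifa, Serpina10, Slc3a1, Mmd2 and Lysmd2.

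Among the genes apart on both scales, Moxd1, which encodes a monooxygenase-like protein, was at 3.75, 11.9 and 28.9 TPM in Control 4 and Alk1-HEC-KO 4 and 5 and at 0.0344 to 1.81 TPM in the rest. Its log2 difference was 4.58 (SE 0.84). Prtn3, which encodes the neutrophil granule protease proteinase 3, was at 63.6 TPM in Control 4, 7.08 in Alk1-HEC-KO 4 and 15.2 in Alk1-HEC-KO 5, against 0.483 to 4.48 TPM (4.24, SE 0.68, and 2.74 without Control 4). The granule genes Mpo and Elane, which neutrophil precursors express with it, stayed at or below 0.474 TPM in all 10 libraries. Nnmt, for nicotinamide N-methyltransferase, was at 340, 204 and 502 TPM against 86.5 to 194 TPM (1.48, SE 0.29). In Nnmt the nearest pair, Alk1-HEC-KO 4 and 2, differed by less than the spread within either set.

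The 2 groups share no library, so each gave its own view of the split. At 4-fold with no overlap, 63 genes were higher in Control 4 than in the other controls (0.489%), and 24 were higher in Alk1-HEC-KO 4 and 5 than in 1 to 3 (0.186%). The 8 genes on both lists were Saa1, Saa2, Saa3, Lcn2, Orm2, Apcs, Moxd1 and Prtn3, which is 12.7% of the first list and 33.3% of the second. Saa1 set the split in both groups, so its place on both lists is no result. The counts of higher genes in this paragraph and these percentages include it. On the lower side 64 and 23 genes passed, and the 3 shared ones were Tmem254c and the predicted genes Gm11175 and Gm13835 (4.69% and 13%). At smaller folds the split agreed less. At 2-fold in each group, 31 genes were higher in both and 17 lower in both, and 31 went in opposite directions. At 1.5-fold these counts were 98, 43 and 156, so opposite directions outnumbered shared ones. These counts in each direction were added after the data were seen. Across all fitted genes the differences within the 2 groups had a Pearson r of 0.084, where genes are not independent points.

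**Figure D2:**
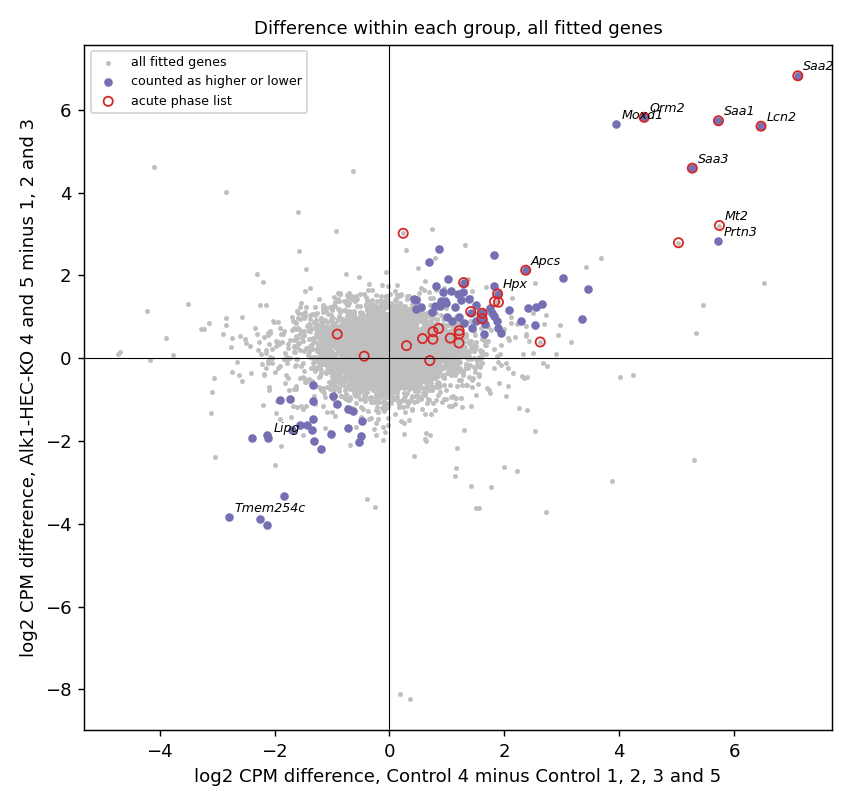
Each point is 1 fitted gene, with the log2 CPM difference of Control 4 from the other controls on the x axis and that of Alk1-HEC-KO 4 and 5 from 1 to 3 on the y axis. Saa1, Saa2, Saa3, Lcn2, Orm2 and Moxd1 lie far out in the upper right, and the grey cloud of the 12872 fitted genes has no slope to the eye (r = 0.084).

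As lists, upstream signalling genes differed little at the transcript level. The list of IL-6 family and STAT3 genes had a median log2 difference of 0.02. Of its 15 fitted members, 1 was counted as higher, beside 0.474% of all fitted genes. That member was Socs3, the feedback inhibitor of cytokine receptors that STAT3 induces. Its TPM were 5.71 in Control 4 and 7.91 and 5.25 in Alk1-HEC-KO 4 and 5. The other controls ran from 1.76 to 4.87 TPM, but Alk1-HEC-KO 2 had 7.87 TPM, so Socs3 overlapped in TPM. Its place in the count thus depended on the use of log2 CPM in place of TPM. Under each of 3 library scalings of the counts, 1 member of the list was counted. Stat3 itself was at 26.6 TPM in Control 4 and 27.5 TPM in Alk1-HEC-KO 2, against 13.8 and 13.3 TPM in Alk1-HEC-KO 4 and 5. The receptor genes Il6ra and Il6st had log2 differences of -0.24 (SE 0.26) and -0.07 (SE 0.18). The C/EBP factor genes Cebpa, Cebpb and Cebpd had 0.17 (SE 0.15), -0.41 (SE 0.23) and -0.79 (SE 0.40), each under 2-fold. Over 22 alternatives Cebpb ran from -0.96 to -0.24 (-0.63 with the run as a term) and Cebpd from -1.2 to -0.45. Il6 transcripts were at 0 in 7 libraries and at most 0.115 TPM, in Alk1-HEC-KO 3.

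The lists for NF-kB signalling (19 fitted genes, median 0.13), for IL-1, TNF and Toll-like receptor ligands and receptors (15, median -0.05), for the type I interferon response (20, median -0.01) and for the interferon gamma response (19, median 0.07) had 0 members counted in either direction. In the second of these lists, 2 of the 15 genes, the receptor genes Tlr2 (0.88, SE 0.26) and Tnfrsf1a (0.33, SE 0.13), were apart on the high side at less than 2-fold, as were 2.56% of all fitted genes at any fold on that side. With the run as a term the medians of the NF-kB, type I interferon and interferon gamma lists were 0.02, -0.35 and -0.19. Nfkbia, which encodes the NF-kB inhibitor that NF-kB induces, was at 34.6, 31.9 and 19.7 TPM in the high-Saa1 libraries and 32.9 to 59.1 TPM in the rest. The 2 interferon lists had their highest summed level in a low-Saa1 library, Alk1-HEC-KO 2, at 494 and 426 TPM.

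Neutrophil markers summed highest in the 3 high-Saa1 libraries, at low levels. The 14 neutrophil genes summed to 7.21, 12.7 and 25.8 TPM in Control 4 and Alk1-HEC-KO 4 and 5 and to 1.42 to 5.22 TPM in the others. Only 2 of the 14 had enough counts to be fitted, S100a9 and Csf3r, and neither was counted, although 1 was with libraries scaled by their totals alone. S100a9, for a calcium-binding protein abundant in neutrophils, was the most abundant of them in the 3 libraries, with 3.10, 4.77 and 15.3 TPM, beside 2.55 TPM in Control 3 and 2.12 TPM in Alk1-HEC-KO 2 as the highest of the rest in each group. The defining marker Ly6g was at 0 in 7 libraries and at most 0.639 TPM, in Control 4. Lcn2 is also expressed by neutrophils, and the part of leukocytes in its difference, as in the others, was not tested.

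Monocyte and macrophage genes had 2 of 13 fitted members counted as higher, Ccr2 and Fcgr1, and a median of 0.51. Of all fitted genes, 0.474% were counted as higher. Ccr2, the chemokine receptor of inflammatory monocytes, was at 0.225, 0.863 and 0.232 TPM against at most 0.201 TPM, which is few counts. Fcgr1 overlapped in TPM, with 1.39 in Control 4 and 1.42 in Control 1. The 16 genes summed to 84.2 TPM in Control 4, within the range of the other controls (73.3 to 92.9 TPM), and to 196 and 113 TPM in Alk1-HEC-KO 4 and 5, against 80.9 to 115 TPM in Alk1-HEC-KO 1 to 3. Only Alk1-HEC-KO 4 was far above the rest, and there Lyz2, a lysozyme gene of macrophages and granulocytes, was at 83.1 TPM, with at most 41.1 TPM elsewhere. Kupffer cell genes, the markers of the resident liver macrophages, had 0 of 12 counted and medians of -0.24 within Control and 0.67 within Alk1-HEC-KO. T and NK cell genes summed to between 2.64 and 10.1 TPM and B and plasma cell genes to between 11.5 and 55.4 TPM, with the highest of both in Alk1-HEC-KO 4. That library also had the highest sum of erythroid genes, 3981 TPM against at most 2396 TPM elsewhere.

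**Figure D3:**
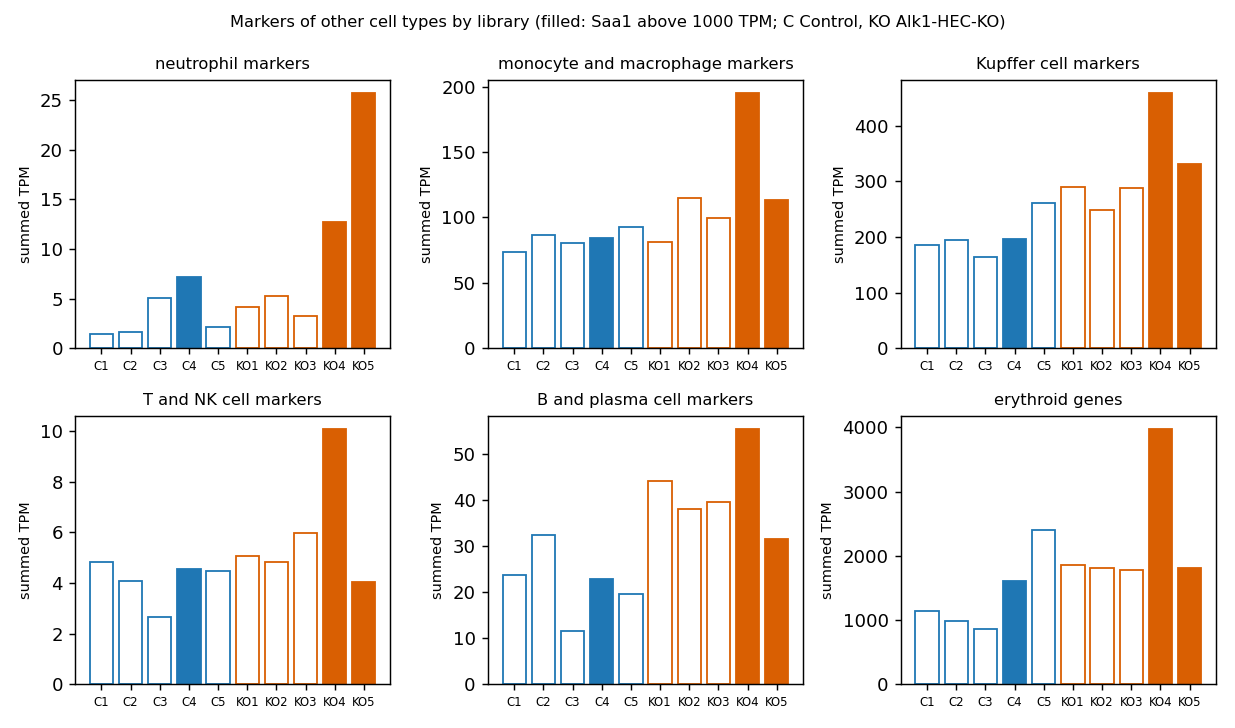
Summed TPM of 6 marker lists in each library, with filled bars for the high-Saa1 libraries (C is Control, KO is Alk1-HEC-KO). The neutrophil sums are highest in the 3 filled bars, while in the other 5 panels Control 4 lies within the range of the open bars and Alk1-HEC-KO 4 is the highest bar.

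Among chemokines, 3 of 14 fitted genes were counted as higher, beside 0.474% of all fitted genes. Cxcl14 was at 2.10, 2.65 and 5.29 TPM against 0.644 to 1.22 TPM (log2 difference 2.19, SE 0.43). The neutrophil attractant Cxcl1 was at 22.2 and 23.7 TPM in Control 4 and Alk1-HEC-KO 4, but at 6.09 TPM in Alk1-HEC-KO 5, inside the 3.77 to 7.71 TPM of the rest, and Ccl19 also overlapped in TPM.

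Lists of other plasma proteins held 0 counted genes. Of 16 genes known as negative acute phase genes, 0 were counted in either direction, and their median was 0.19. Without regard to fold, 3 of the 16 were apart on the high side and 1, Pon1, on the low side. Of all fitted genes, 2.56% were apart on the high side and 2.18% on the low side. Alb, for serum albumin, was at 41530, 32080 and 20690 TPM in the high-Saa1 libraries and 21120 to 45950 TPM in the rest (log2 difference -0.19, SE 0.21), and Ttr, for transthyretin, differed by -0.10 (SE 0.17). The iron carrier gene Trf, listed there, was instead apart on the high side in both groups in log2 CPM, at less than 2-fold (0.51, SE 0.18), as were Apom and Fetub. Complement genes had a median of 0.33 over 21 genes, with 18 positive values, 2 apart on the high side and 0 counted. Coagulation genes had a median of 0.19 over 17, with 12 positive values, 2 apart on the high side (F2 and F7) and 0 counted.

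Among the genes lower in the high-Saa1 libraries of both groups were several enzymes of hepatocytes. Cyp2c37, a drug-metabolising cytochrome P450 gene on chromosome 19 (39992424 to 40012243), was at 50.3 TPM in Control 4 and at 136, 111, 116 and 119 TPM in the other controls. In the libraries labelled Alk1-HEC-KO it was at 12.02 and 11.5 TPM in 4 and 5 and at 40.02, 69.6 and 33.2 TPM in 1 to 3. The log2 difference was -1.58 (SE 0.22), with -1.44 within Control and -1.62 within Alk1-HEC-KO. Aldh3a2, for a fatty aldehyde dehydrogenase, was at 35.7 TPM in Control 4 against 60.7 to 101 TPM in the other controls, and at 9.15 and 10.5 TPM against 23.5 to 68.4 TPM in the other group (-1.78, SE 0.34). For both genes the 2 groups lay at different levels, and the sets were apart within each.

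Of 31 fitted P450 genes, 2 were counted as lower, beside 0.21% of all fitted genes. They were Cyp2c37 and Cyp2c38, and the latter overlapped in TPM. A further 5 (Cyp2c50, Cyp2c54, Cyp2e1, Cyp4a12a and Cyp4v3) were lower without overlap in log2 CPM but by less than 2-fold, so 7 in all were apart on the low side and 0 on the high side, where 2.18% of all fitted genes were apart on the low side. Their list median was -0.29, and 26 of 31 values were negative. Cyp2c50 was at 246 TPM in Control 4 and 325 to 391 TPM in the other controls, and at 128 and 65.1 TPM against 210 to 240 TPM in Alk1-HEC-KO (-0.87, SE 0.17). Cyp2e1, which oxidises ethanol and other small molecules, was at 3099 TPM in Control 4, inside the other controls in TPM (2739 to 3436), and at 994 and 715 TPM against 1519 to 2724 TPM in Alk1-HEC-KO.

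Hepatocyte transporter genes all had a negative difference: 18 of 18 under each of 3 library scalings, with a median of -0.29 and 0 counted. Apart on the low side in log2 CPM were 4 of them, the organic anion carrier genes Slco1a1 (-0.77, SE 0.19) and Slco1b2 (-0.54, SE 0.16), the bile acid uptake gene Slc10a1 (-0.57, SE 0.19) and the export pump gene Abcc2 (-0.58, SE 0.20). Of all fitted genes, 2.18% were apart on that side. Slco1b2 was at 148, 105 and 77.4 TPM in the 3 libraries and at 130 to 263 TPM in the rest. With the run as a term, the median was -0.14 for transporters and -0.15 for P450 genes.

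Lipid genes had lower values with more spread. All 17 fitted fatty acid synthesis genes had a negative fitted difference under the 3 scalings, with a median of -0.58. With the main scaling, 2 of the 17 were positive within Control. Control 1 and 2 and Alk1-HEC-KO 1, which form the run with no high-Saa1 library, had the 3 highest summed levels (4421, 8365 and 5849 TPM), and with the run as a term the median was 0.10, so the direction turned. The 1 counted was Me1, for the malic enzyme that supplies NADPH, with 37.5, 46.7 and 22.9 TPM against 42.8 to 342 TPM (-1.45, SE 0.64). The range of the rest was wide, since Control 2 stood at 342 TPM, and the difference was -0.72 with the run as a term. Fasn, for fatty acid synthase, overlapped: 229, 232 and 48.6 TPM against 140 to 659 TPM (-0.87, SE 0.51). All 20 fatty acid oxidation and ketogenesis genes had negative fitted differences too, with a median of -0.35 and 0 counted, although 5 were positive within Control. The median was -0.47 with the run as a term and -0.19 without Alk1-HEC-KO 2, the library with the highest sum (4934 TPM).

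Further genes lower in both groups on both scales included Lipg, for endothelial lipase, at 1.78 TPM in Control 4 against 2.85 to 15.4 TPM in the other controls, and at 0.995 and 0.360 TPM against 1.48 to 5.89 TPM in Alk1-HEC-KO (-2.22, SE 0.66, and -1.48 with the run as a term). Mme, which encodes the peptidase neprilysin, was at 0.721, 0.477 and 0.180 TPM against 0.760 to 3.66 TPM (-1.98, SE 0.38). Acss3, for an acyl-CoA synthetase, was at 1.57, 1.08 and 1.37 TPM against 2.44 to 5.55 TPM (-1.40, SE 0.27), so that every high-Saa1 library was below every other library whatever its group. Fitm1, for a protein that helps lipid droplets form, was at 14.3 TPM against 25.5 to 46.1 TPM in Control and at 2.72 and 3.58 TPM against 5.92 to 28.3 TPM in Alk1-HEC-KO (-1.65, SE 0.54, and -0.93 with the run as a term, which is under 2-fold). Lgr5, a Wnt target of hepatocytes around the central vein, was at 0.540 TPM in Control 4 and 0.597 to 1.19 TPM in the other controls, a narrow gap at a low level. In the other group it was at 0.0325 and 0.0995 TPM against 0.116 to 0.294 TPM. The nuclear receptor gene Pparg (-1.06, SE 0.35) was counted but overlapped in TPM.

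**Figure D4:**
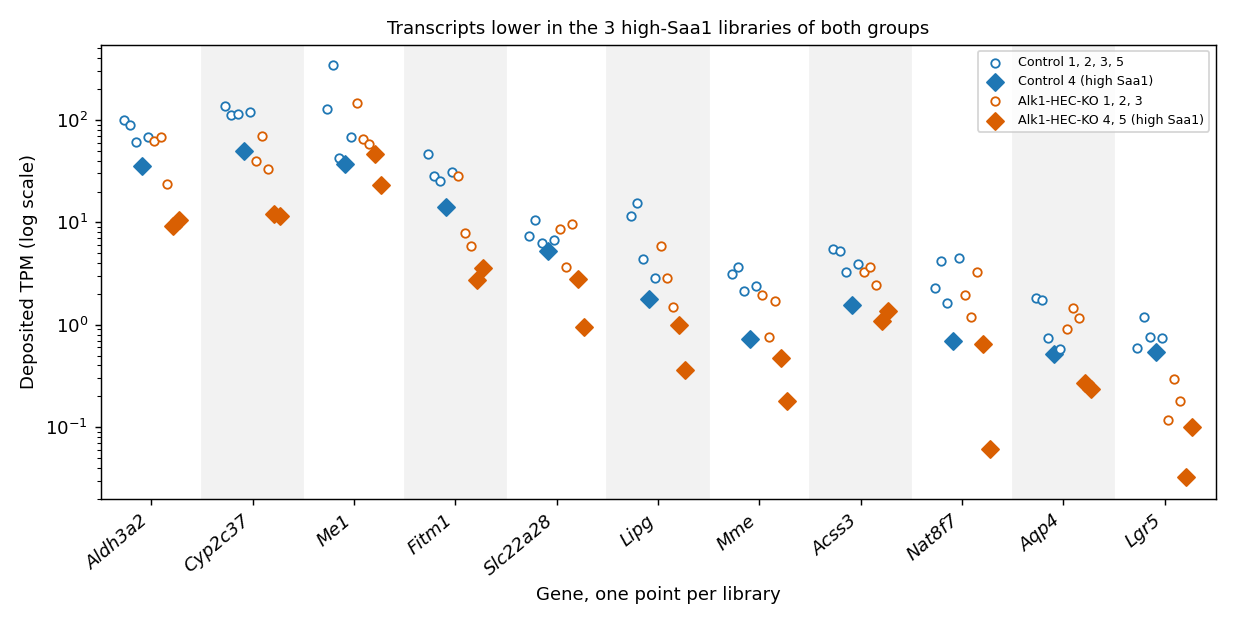
Deposited TPM (log scale) of 11 genes that were lower in both groups and did not overlap within a group in TPM either; filled diamonds are the 3 high-Saa1 libraries. Within each colour the diamonds lie below the circles, and for Aldh3a2, Cyp2c37, Fitm1 and Lgr5 the blue diamond, Control 4, lies above some orange circles, so the order holds within groups and not across them.

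Several lists had medians of opposite sign in the 2 groups. The stellate cell and matrix list, genes of the fibre-producing cells, had a median of -0.08 within Control and 0.85 within Alk1-HEC-KO. Col3a1, for a fibrillar collagen, was at 19.0 TPM in Alk1-HEC-KO 4 and at 1.57 TPM in Alk1-HEC-KO 5, lower than in every other library, so the second median rested on library 4, and the median over both groups was 0.65 with that library and 0 without it. Sinusoidal endothelial genes had medians of -0.85 and 0.27, continuous endothelial genes -0.41 and 0.64, and cholesterol synthesis genes 0.50 and -0.40. The type I interferon list had 0.29 and -0.08, the interferon gamma list 0.25 and -0.05, and the unfolded protein response list 0.05 and -0.07. Circadian clock genes, by contrast, had -0.28 and -0.25. The differences between the 2 groups in these medians were not tested. Over both groups the clock median was -0.19, and -0.03 with the run as a term. For the sinusoidal, cholesterol and unfolded protein response lists it was -0.13, -0.03 and 0.05, and 0.12, 0.14 and 0.22 with the run. Immediate early and heat shock genes, which respond to handling of tissue, had medians of -1.09 and -0.35 (-0.62 over both groups, and -0.07 with the run as a term), with summed levels of 125 to 266 TPM in the high-Saa1 libraries and 190 to 597 TPM in the rest, and their part in the other differences was not tested.

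**Figure D5:**
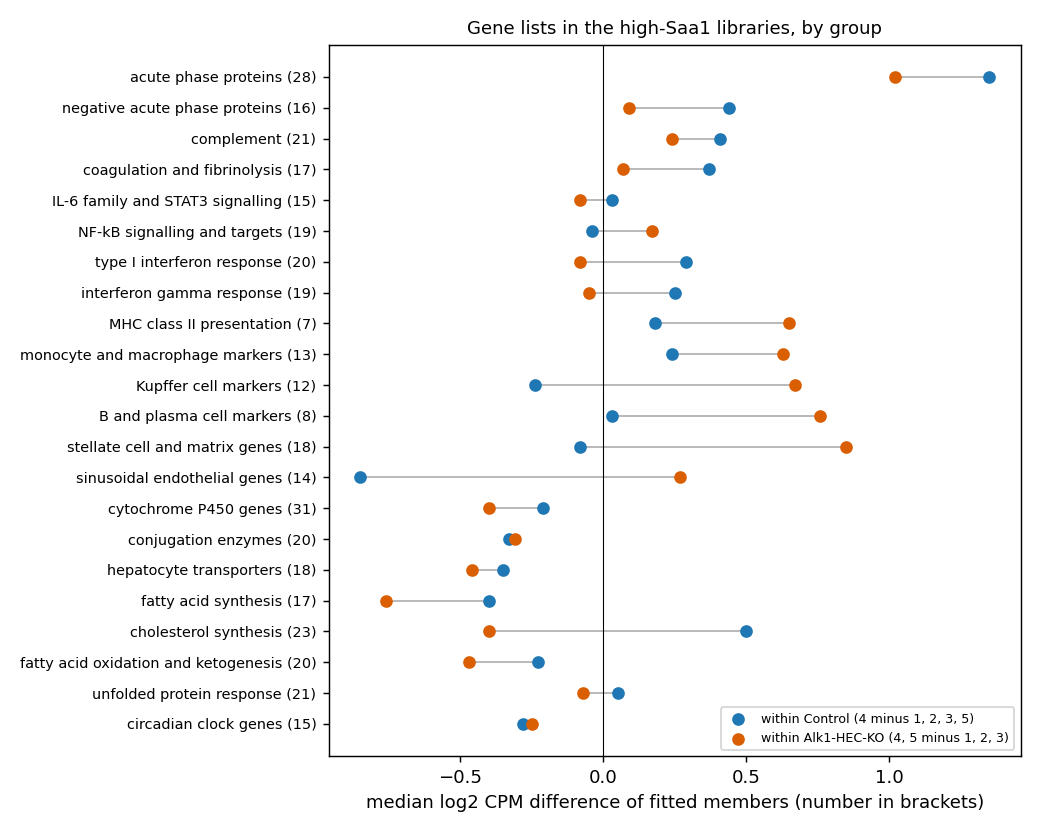
Median log2 CPM difference of the fitted members of 22 lists, high-Saa1 minus the rest, in blue within Control and in orange within Alk1-HEC-KO, with the number of fitted members in brackets and Saa1 left out. Among the 22 lists shown, the acute phase list has the highest median in both groups, 1.35 and 1.02, with the orange point of the matrix list next at 0.85. The neutrophil list, with only 2 fitted genes, is not shown. Its medians were 0.81 within Control and 1.93 within Alk1-HEC-KO. The Kupffer, matrix, endothelial and cholesterol lists have their 2 points on either side of 0, as do the IL-6, NF-kB, interferon and unfolded protein response lists.

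The split was also used as a covariate for the comparison the study was designed for. With high Saa1 as a term, 22 genes were higher (0.171%) and 30 lower (0.233%) in libraries labelled Alk1-HEC-KO by edgeR's quasi-likelihood test with Benjamini-Hochberg adjustment over all genes, 0.404% together. Without the term the counts were 24 and 22 (0.357% together), and 43 genes were called both ways. Without the 3 high-Saa1 libraries 11 and 19 genes were called, 26 of them shared with the fit that holds the term. Saa2 had a group difference of 1.42 with adjusted p = 0.91 in that edgeR fit, and Lcn2 0.96 with adjusted p = 0.93. Both genes vary with the Saa1 level that set the term, so these values cannot show whether they differ between the groups. Glul, for the glutamine synthetase of hepatocytes around the central vein, was at 283 ± 48.5 TPM in Control and 32.5 ± 10.9 TPM in Alk1-HEC-KO (SD, n = 5 each). Its group difference was -3.16 (SE 0.16, edgeR adjusted p = 9.8e-07), beside -0.43 (SE 0.17) for high Saa1. Ly6c1, an endothelial surface gene, was higher by 4.91 (SE 0.39, edgeR adjusted p = 5.3e-05). Cyp2c37 had a group difference of -1.67 (SE 0.19, edgeR adjusted p = 0.0019) with the term, and was not called with the group alone or with the Saa1 threshold at 500 TPM, where its difference was -1.38. Of the 52 genes called for the group, 3 were also counted as higher or lower with Saa1, where 0.684% of all fitted genes were. Leaving out 1 library gave 4 to 24 genes higher and 9 to 30 lower for the group, with the fewest without Control 4, and the run of library numbers as a term gave 3 and 6.

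Some facts of the libraries bear on these values. Acvrl1, the gene named in the title, was at 1.05, 0.296, 0.391, 0.661 and 0.951 TPM in Control. It was at 1.15, 1.39, 1.22, 1.92 and 1.12 TPM in the group labelled Alk1-HEC-KO, so it was not lower there in whole liver. A level over the whole liver cannot show whether the gene was lost in some of its cells, and the labels were kept as given. Total counts were close, from 20.91 to 21.56 M (mega) per library. Mitochondrially encoded transcripts took 7.39%, 9.72% and 12.01% of the counts in the high-Saa1 libraries and 5.82% to 16.6% in the rest. With the run of library numbers as a term, 59 genes were counted as higher and 27 as lower.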

How the data were processed

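RNA from frozen, homogenised mouse liver was sequenced on a BGISeq-500 (5 Control and 5 Alk1-HEC-KO libraries), per the labels' protocols. Trim Galore 0.6.4, kallisto 0.4.6 and GRCm38.p6 are named in the submitters' processing notes. How transcripts were summed to genes, and whether strand was used, is not given in the sources used here. The authors deposited, for each library, estimated counts and TPM for 55385 gene IDs. Of nonzero estimated counts 38.3% were whole within 1e-06, and all were rounded. A GRCm38 annotation gave symbols for 55144 IDs, and the 241 others held at most 0.013% of counts. Totals of 20.91 to 21.56 M counts limit the precision of low genes.

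Libraries were split at 1000 TPM of Saa1. edgeR 4.0.16 (R 4.3.3, filterByExpr, TMM factors 0.869 to 1.107, quasi-likelihood fit with group and high Saa1) gave log2 differences for 12872 genes. Separation was judged in log2 CPM with a prior count of 2, and a symbol's shared sequence from 31-base words of its transcripts. Since Saa1 chose the split, only the group term was tested, by edgeR's quasi-likelihood test with Benjamini-Hochberg adjustment, at adjusted p under 0.05. The scripts were tested on simulated data. The members, gene lists and naming rule were chosen with earlier results of these data known. That rule took Acvrl1, the 15 largest differences each way among counted genes that averaged 1 TPM or more in their higher set, the fitted members of the acute phase (positive and negative), IL-6, neutrophil and growth hormone lists, and up to 4 counted genes plus the most abundant one of each other list. Other genes were named after their values were seen. The alternatives were other scalings, filters, tools (DESeq2 1.42.0, limma 3.58.1), thresholds, terms and left-out libraries.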

Additional observations from a re-analysis of the deposited data

Results flagged for a closer look

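Within a group of 5 libraries, 1 library stood far from the other 4 for the following values, given in TPM with the nearest other library. The gap was judged in log2 CPM for genes and in log2 of the summed TPM for summed markers. It can be smaller in the TPM given, as for Crp. Chance gives such a gap in about 1 in 20 groups, and the choice of Control 4 by its Saa1 favours gaps in that library for genes that vary with Saa1.

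Control 4 was the high library for Lcn2 (591.8, nearest 10.39), Saa3 (420.6, nearest 11.43), Prtn3 (63.59, nearest 1.297), Apcs (476.3, nearest 92.53), Mmd2 (13.37, nearest 1.743), Lysmd2 (2.582, nearest 0.5435), Atp11a (5.379, nearest 1.913), Cp (623.1, nearest 419.5), Fgb (1984, nearest 970.9) and Fgg (4196, nearest 1945). It was the low library for Mme (0.721, nearest 2.14). In that group Control 1 was high for Cyp2c38 (14.96, nearest 8.745), and Control 3 was low for the summed T and NK cell markers (2.641, nearest 4.078).

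In the group labelled Alk1-HEC-KO, library 5 stood apart for Saa4 (281.9, nearest 147.2) and Crp (214.4, nearest 200.8), and library 3 for Steap4 (29.84, nearest 24.55). Library 4 stood apart for Acvrl1 (1.923, nearest 1.393) and for the summed erythroid genes (3981, nearest 1860).

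For 3 named genes the high-Saa1 libraries lay on opposite sides of the rest in the 2 groups without overlap, and the difference between the groups was not tested. Egfr differed by 0.86 within Control and -0.59 within Alk1-HEC-KO, Pcna by 0.24 and -0.41, and Spp1 by -0.88 and 1.01 (log2).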

How the results depend on the processing

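The main counts were 61 genes higher and 27 lower in the high-Saa1 libraries, and 22 higher and 30 lower in libraries labelled Alk1-HEC-KO. In none of the alternatives run did a result reverse by the rule used for a called value, but medians of lists, which have no test, were less stable: 28 of 41 changed sign in at least 1 alternative, 17 with the replicate block and 8 with the run of library numbers as a term. Fatty acid synthesis turned from -0.58 to 0.10 with the run. With the block, the high-Saa1 term rested on number 5 alone, where Alk1-HEC-KO 5 had high Saa1 and Control 5 did not. Both libraries numbered 4 had high Saa1, and none numbered 1 to 3 did. In that fit MHC class II turned from 0.61 to -0.73, erythroid genes from 0.48 to -0.89 and immediate early genes from -0.62 to 0.22. Continuous endothelial genes turned from 0.37 to -0.14 and male-biased genes from -0.31 to 0.08. The medians of the acute phase (0.97 to 1.59), P450 (-0.38 to -0.15) and transporter lists (-0.57 to -0.14) kept their sign in every alternative run. With no filter on low counts the 4 counts were 238, 80, 181 and 174. A fold of 1.5 gave 155 higher and 63 lower with Saa1, and a fold of 4 gave 14 and 8. On log2(TPM + 1) with limma they were 20 and 17, with 16 higher and 16 lower for the group, and on log2(TPM + 0.1) 32 and 31, with 23 and 18. When the counted genes also had to be apart in TPM, an alternative chosen after seeing the data, 26 were higher. With no group term and no overlap over all 10 libraries 15 were lower. For the group, DESeq2 called 55 higher and 68 lower, the run of library numbers as a term 3 and 6, a Saa1 threshold of 500 TPM 9 and 16, log2 Saa1 as a continuous term 14 and 19, and the fit without the 3 high-Saa1 libraries 11 and 19. With a replicate block 73 genes were higher and 28 lower with Saa1, and 5 higher and 14 lower for the group. Between libraries that share a number, deviations from the group mean had an r of -0.1 to 0.276 over the 5 numbers. Control 1 and Control 5 correlated best with the Alk1-HEC-KO library of the same number, and Control 2, 3 and 4 did not. Such low values cannot show whether the numbers pair the libraries, and the labels do not say. Leaving out 1 library gave 68 to 367 higher and 28 to 119 lower, and for the group 4 to 24 and 9 to 30. Scaling by library totals moved the median of all fitted genes within Alk1-HEC-KO to -0.12. Apart from the construction of the alternatives with other filters, folds or fewer libraries, the cause was not tested. Each library's count of about 21 M leaves genes under 1 TPM with few counts.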

Other observations

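The 7 fitted MHC class II genes, which present antigen on macrophages and B cells, had a median log2 difference of 0.61 with 0 counted and summed to 84.6 to 269 TPM in the high-Saa1 libraries and 83.2 to 148 TPM in the rest. Alk1-HEC-KO 4 alone held the 269 TPM, and without it the median was 0.10. The 13 genes of growth hormone and STAT5 signalling had a median of -0.01 with 0 counted, and 18 male-biased liver genes had -0.31 with 0 counted. Of these, 3 were apart on the low side in both groups in log2 CPM at less than 2-fold, where 2.18% of all fitted genes were apart on that side: Slco1a1, Elovl3, for a fatty acid elongase (-0.88, SE 0.27), and Cyp4a12a (-0.95, SE 0.28). The 20 conjugation enzyme genes had a median of -0.35 (-0.05 with the run of library numbers as a term), the 21 genes of gluconeogenesis, the urea cycle and amino acid breakdown -0.04, and the 19 iron and metal genes 0.06, each with 0 counted.

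Mitochondrially encoded transcripts had medians of opposite sign, -0.48 within Control and 0.51 within Alk1-HEC-KO, over 13 genes. In a principal component plot of all fitted genes the first component (28.6% of the variance) placed Control 4 at 3.31, between Alk1-HEC-KO 5 at 55.4 and Control 2 at -46.4, and the second (16.3%) placed Control 4 at -21.1 and Alk1-HEC-KO 4 at 46.7. The 3 high-Saa1 libraries did not lie together on either.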
